A study of Arabidopsis thaliana with 48 samples.

Results

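The 46 genes described here encode cytosolic ribosomal proteins of Arabidopsis thaliana, 20 of the small subunit and 26 of the large subunit, in 23 protein families. They were taken as a fixed list of locus identifiers out of the 33602 loci in the count tables, with all transcripts of a locus and both sequencing lanes of a replicate summed. All 46 had counts in all 24 replicates, and all 46 passed the filter on low counts in every test. The lowest count of a member in a replicate was 59, for the P0 gene AT2G40010, and the highest was 30413, for the L3 gene AT1G43170.

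The cytosolic ribosome translates the messages of nuclear genes, and each of its proteins is encoded in Arabidopsis by a small family of near-equivalent genes called paralogues. Making ribosomes is among the largest costs of a growing cell, and in plants it is tied to sugar supply and to the TOR kinase, which acts among others through the S6 kinases on ribosomal protein S6. In leaves, transcripts of these genes are known to be abundant in young, growing tissue.

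Leaf RNA came from plants of the ecotype Columbia grown for 6 weeks in controlled rooms, the last 2 weeks of them at a set photon flux density, made with layers of shade cloth or none, called light below and given in µmol m-2 s-1. In 4 growth light groups the plants stood at light 100, 250, 450 or 700 and carry the label day 0.583. In 6 diurnal groups plants kept at light 250 were taken at days 0.083, 0.25, 0.375, 0.625, 0.75 and 0.916, and in 2 step groups plants moved from light 100 to light 700 carry the labels day 0.6 and day 2.57. Each group has 2 replicates, each a pool of RNA extracted from separate plants and combined at random. The protocol gives a photoperiod of 10 h, days at 23 °C and nights at 5 °C. It also speaks of 2 rooms, 1 of them with low night temperature, and does not say which room a sample came from, so the night temperature of a group is not known for certain. The moment that counts as day 0 is not stated, and the protocol gives the step as shorter than a day, so the labels are read as the order of the harvests within a series and not as a time of day or a time since the move. Below, over the day and across the day mean over the 6 diurnal harvests in that order. Whole rosettes were frozen and ground, so the label leaf covers all cells of the rosette. Differences in the number of cells of a type cannot be told apart from differences in RNA per cell.

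Upstream sequences are shown first for 2 pairs of paralogues, S9 and L3, because the second genes of these pairs had the widest ranges over the day. Each line gives the 250 bases before the annotated start of the gene, 5′ to 3′ on the strand of the gene, from the RefSeq annotation of assembly TAIR10.1. Capitals mark matches, on either strand, to the telo box AAACCCTA and to the site II motifs TGGGCC and TGGGCT, short elements known from promoters of plant ribosomal protein genes.
AT5G15200 (S9, chr5:4936430-4936679, minus strand): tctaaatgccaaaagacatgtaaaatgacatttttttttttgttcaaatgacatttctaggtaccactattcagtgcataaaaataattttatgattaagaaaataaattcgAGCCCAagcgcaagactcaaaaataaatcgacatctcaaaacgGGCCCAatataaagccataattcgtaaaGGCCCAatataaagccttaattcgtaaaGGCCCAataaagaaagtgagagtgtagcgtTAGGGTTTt
AT5G39850 (S9, chr5:15949660-15949909, plus strand): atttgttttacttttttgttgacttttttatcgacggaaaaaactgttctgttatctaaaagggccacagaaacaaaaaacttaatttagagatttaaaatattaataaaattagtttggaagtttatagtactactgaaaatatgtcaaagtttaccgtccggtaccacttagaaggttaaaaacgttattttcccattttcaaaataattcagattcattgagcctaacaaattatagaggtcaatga
AT1G43170 (L3, RefSeq symbol RP1, chr1:16266303-16266552, plus strand): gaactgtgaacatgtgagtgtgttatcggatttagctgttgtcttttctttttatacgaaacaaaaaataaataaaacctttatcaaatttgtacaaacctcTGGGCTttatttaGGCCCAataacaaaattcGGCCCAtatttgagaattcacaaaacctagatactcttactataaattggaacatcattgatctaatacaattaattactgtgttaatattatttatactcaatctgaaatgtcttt
AT1G61580 (L3, RPL3B, chr1:22723153-22723402, minus strand): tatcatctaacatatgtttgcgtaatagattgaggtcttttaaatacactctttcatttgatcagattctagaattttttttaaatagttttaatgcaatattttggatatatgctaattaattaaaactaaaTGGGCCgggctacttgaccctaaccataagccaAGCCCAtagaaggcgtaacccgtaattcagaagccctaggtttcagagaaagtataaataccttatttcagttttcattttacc

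The window of AT5G15200 holds 4 site II matches and 1 telo box, and that of AT5G39850 holds none of these letters. The L3 windows hold 3 and 2 site II matches and no telo box. Over all 46 members, 31 windows (67.4%) hold a site II match of either kind, against 19.2% of the windows of 27443 nuclear protein-coding genes. A telo box is in 7 of the 46 (15.2%), against 4.49% of all windows. Among the other 180 cytosolic ribosomal protein loci in the annotation, 69.4% hold a site II match and 22.2% a telo box. Matches that overlap were each counted. A match describes the letters of the window, and the lack of one says only that these letters are not in it.

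Total counts per replicate ran from 20418095 to 36331053, and the 46 genes took 0.479% to 1.58% of them. Levels are given in CPM, the share of a gene in the scaled total of its library, under one trimmed mean of M values (TMM) scaling of all 24 replicates. The replicates lay furthest apart for diurnal day 0.916, where 45 of the 46 genes were higher in replicate 2 (median log2 difference 0.33), and for step day 0.6, where all 46 were higher in replicate 2 (median 0.44). Markers of leaf mesophyll (RBCS1A, CAB1 and RBCS2B) summed to 11981 to 40465 CPM, whereas the marker pairs of root, flower and seed each summed to at most 0.362 CPM. A change passed the threshold when the Benjamini-Hochberg adjusted p of edgeR's quasi-likelihood test, taken over every locus in the fit, was under 0.05. Changes are log2 values with their SE.

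Per kilobase of exon, the mean level over the 12 groups ran from 3.86 CPM for the P0 gene AT2G40010 to 349 CPM for the S9 gene AT5G15200, with a median of 134. In several families 1 gene held most of the level of the members counted, per length. The share was 98.2% for P40 (AT1G72370) over RPSAb (AT3G04770) in family Sa, whose protein sits near the exit of the message on the small subunit. It was 96.9% for SAC52 (AT1G14320) over RPL10B (AT1G26910) in L10, 96.3% for AT5G15200 over AT5G39850 in S9, 92.0% for AT2G41840 over AT3G57490 in S2 and 91.9% for AT1G43170 over RPL3B in L3. In other families the members were near parity, with 53.1% for EMB3010 (AT5G10360) against 46.9% for RPS6 (AT4G31700) in S6, the target of the S6 kinases, and 54.2% for ATL5 (AT3G25520) against 45.8% for RPL5B (AT5G39740) in L5, which binds 5S rRNA.

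Summed over the 46 genes, the level was 8151 and 7506 CPM at growth light 100 in the pair of replicates. At light 250 it was 4866 and 4839 CPM, at light 450 it was 5016 and 4539 CPM, and at light 700 it was 4833 and 4826 CPM. Every replicate at the 3 higher light levels lay below both replicates at light 100, and the replicates at light 450 lay on either side of those at light 250 and light 700. Over the diurnal series the sums were 7111 and 7356 CPM at day 0.083, 7801 and 7575 at day 0.25, 9995 and 8704 at day 0.375, 5425 and 5368 at day 0.625, 5985 and 5204 at day 0.75, and 5918 and 7514 at day 0.916. The highest sums were in the step groups, with 13202 and 17900 CPM at day 0.6 and 13356 and 11871 CPM at day 2.57, which overlap each other and lie above every other replicate. The growth light 250 group, labelled day 0.583, had 0.899 times the sum of the diurnal day 0.625 group, which stood at the same light. Each of the 46 genes had its highest group mean in step day 0.6 except for RPL3B, highest at diurnal day 0.375, and AT2G40010, highest at step day 2.57.

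**Figure D1:**
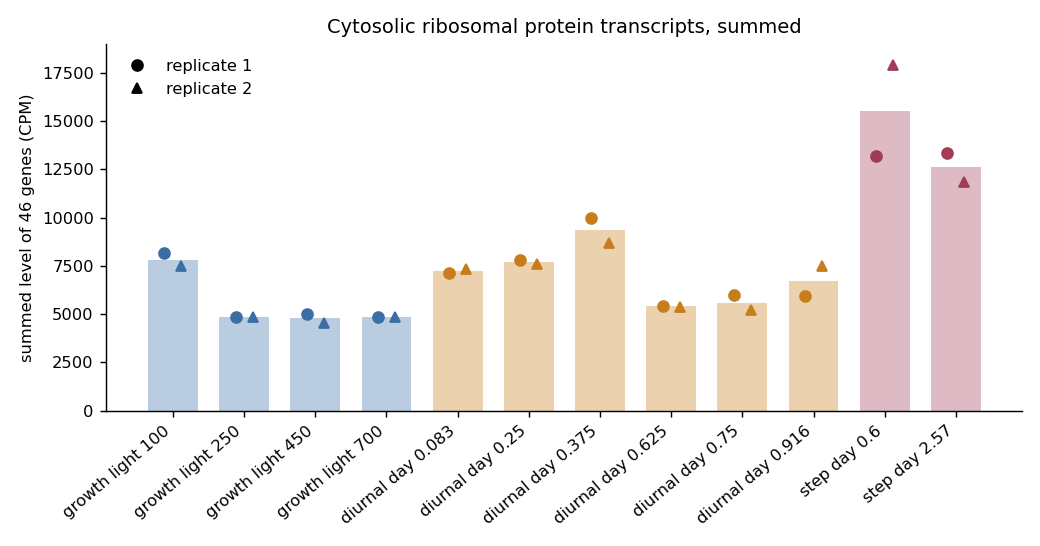
Summed level of the 46 genes in CPM (bars, mean of 2 replicates; circles and triangles, replicates 1 and 2) by growth light (4 groups), diurnal day (6 groups) and light step (2 groups). The step replicates lie between 11871 and 17900 CPM, above every other replicate, and the 3 higher growth light levels lie at 4539 to 5016 CPM.

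**Figure D2:**
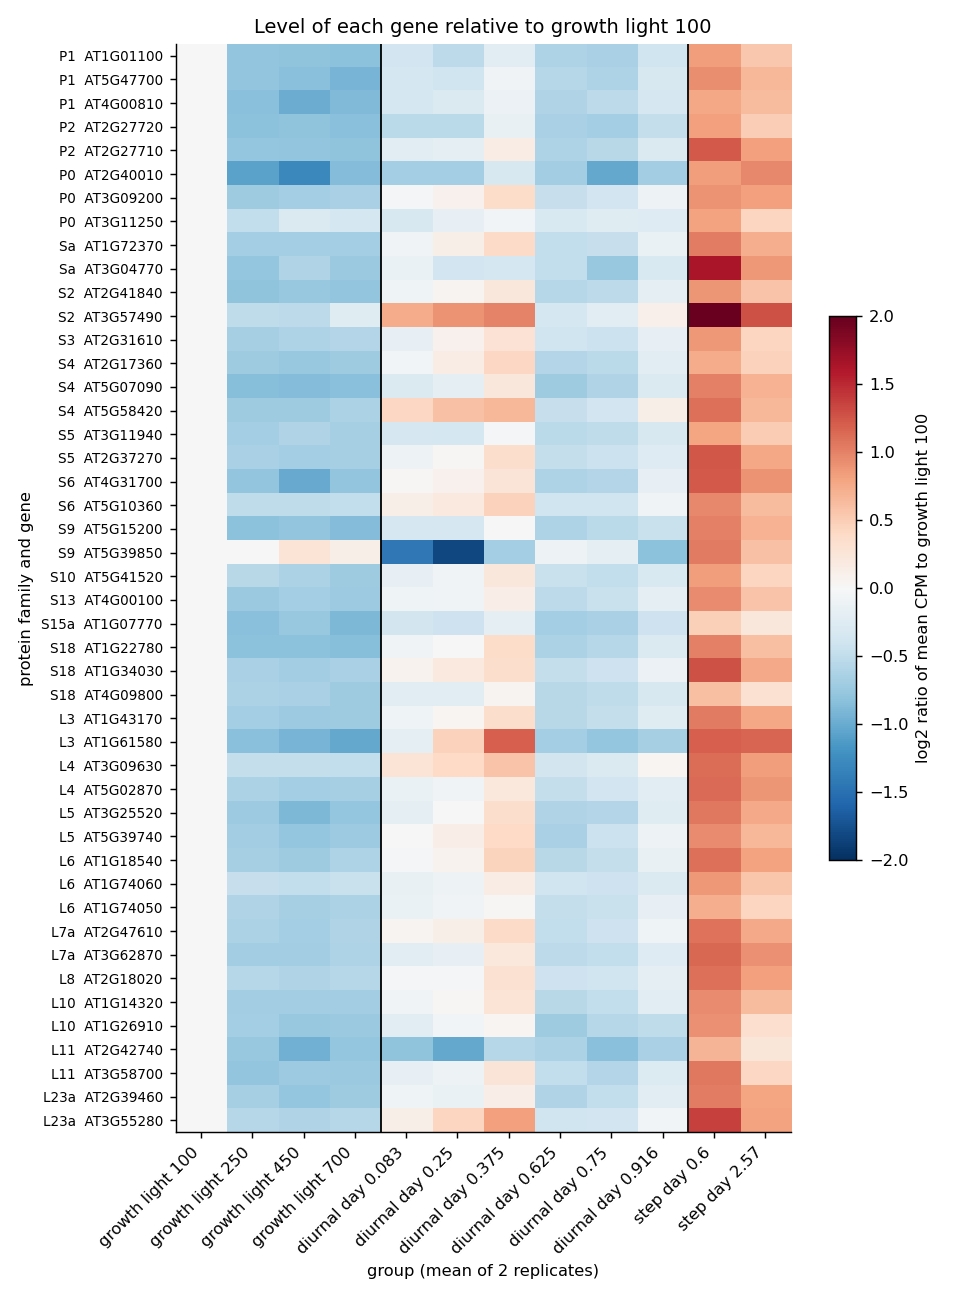
Log2 ratio of each gene's mean CPM in a group to its mean at growth light 100, with genes in rows by protein family and groups in columns. Almost every row is blue at growth light 250 to 700 and red in the step groups, and the S9 gene AT5G39850 is the row that is not blue at higher growth light and is bluest at diurnal day 0.25.

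The growth light comparison asks how the genes stood after 2 weeks at different light, in plants labelled with one day. At light 250, 45 of the 46 genes were lower than at light 100, where 14.4% of all 20669 loci tested were lower (edgeR). At light 450 it was 45 of 46 against 22.3% of all loci, and at light 700 it was 44 of 46 against 20.3%. The median log2 change of the 46 genes was -0.70, -0.71 and -0.72 at light 250, 450 and 700 (SE of single genes 0.068 to 0.24), while that of all loci stayed near 0. The adjusted p of the genes past the threshold ran from 1.06e-06 to 0.0172 over the 3 comparisons (edgeR). The sum of the 46 was 0.620, 0.610 and 0.617 times that at light 100.

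Between light 700 and light 250, a comparison added after the data were examined, the median log2 change was -0.01 and 0 of 46 genes passed (edgeR), 3 of them at an unadjusted p under 0.05 and 0 by DESeq2, with 4.91% of all loci past the threshold. Without TMM, scaling to total counts alone moved the median of all loci to 0.09, 0.24 and 0.19 at light 250, 450 and 700, and that of the 46 genes to -0.61, -0.48 and -0.53. Under it 45, 42 and 43 genes were lower past the threshold, where 2170, 2752 and 2631 of 20669 loci were. At light 450 1 gene was higher, where 8007 of 20669 loci were. The median of the 46 genes was negative on both scalings and smaller in size without TMM.

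The genes of the stalk proteins P0, P1 and P2, which stand out from the large subunit and bring elongation factors to the ribosome, all passed as lower at light 700. The 3 P1 genes changed by -0.84, -0.95 and -0.90 (log2) at light 700, and the P2 genes AT2G27720 and AT2G27710 by -0.86 and -0.83. AT4G00810, of P1, changed by -0.84 ± 0.09 at light 250 and by -1.0 ± 0.09 at light 450. The P1 gene AT5G47700 had 105 and 110 CPM at light 100, 63.7 and 60.3 at light 250, then 58.9 and 60.6 at light 450, with 56.6 and 55.8 at light 700. Its replicates at light 100 lay above all the others, and its change at light 700 was -0.95 ± 0.07 (SE, n = 2 per group; adjusted p 1.06e-06, edgeR).

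All 3 P0 genes passed at light 700, and none of the 3 ratios between them passed over growth light (exact permutation p 0.0571 to 0.0952, adjusted 0.267 each). The main P0 gene AT3G09200 changed by -0.66 ± 0.09 and its close copy AT3G11250 by -0.37 ± 0.09 at light 700, both past the threshold. Without replicate 1 of light 100 the change of AT3G11250 was -0.29 and short of the threshold. The least expressed P0 gene, AT2G40010, had 6.76 and 7.02 CPM at light 100 against 3.18 and 3.36 at light 250, then 3.60 and 2.01 at light 450, with 3.72 and 3.84 at light 700. Its log2 change of -1.28 ± 0.23 at light 450 was the lowest value of any member (adjusted p 0.000844, edgeR), and it has the largest SE of the 46. At light 700 it changed by -0.88 ± 0.23, a call lost (at -0.86) when replicate 1 of that light was left out. A gene on the opposite strand overlaps it, and the use of strand in counting is not given in the sources used here.

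Among the small subunit genes, 18 of 20 were lower at light 700. S15a (RPS15A, AT1G07770), at 187 and 188 CPM at light 100, was at 102 and 98.8 CPM at light 700, with no overlap of the groups. Its change was -0.92 ± 0.07 (SE; adjusted p 1.36e-06, edgeR). The S4 gene AT5G07090 changed by -0.85, -0.87 and -0.85 over the 3 light levels. The S5 genes RPS5A (AT3G11940) and RPS5B (AT2G37270), of which RPS5A is known for its expression in dividing cells, changed by -0.68 each at light 700. RPS6 (AT4G31700) was at 227 and 211 CPM at light 100, 129 and 124 at light 250, then 122 and 96.9 at light 450, with 126 and 129 at light 700. Its change of -1.02 ± 0.10 at light 450 was set beside -0.52 ± 0.08 for its close copy EMB3010, both past the threshold (adjusted p 8.92e-06 for RPS6, edgeR). RPS6 and EMB3010 share 85.2% of their sequence over 742 bases, so the counting could split reads between them.

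The 2 genes that did not pass at light 700 were both of the small subunit. The S2 gene AT3G57490 had 14.2 and 12.7 CPM at light 100 and 11 and 11.8 at light 700, a change of -0.26 ± 0.12 (adjusted p 0.0900, edgeR), though it passed at light 250 and light 450. The S9 gene AT5G39850 had 16.5 and 12.8 CPM at light 100, 14.5 and 14.7 at light 250, then 16.4 and 18.9 at light 450, with 16.1 and 15.9 at light 700. Apart from the value of 18.9 CPM, all replicates at higher light lay within the range of light 100, and its changes were -0.02 ± 0.13, 0.24 ± 0.12 and 0.10 ± 0.12. The change at light 450 passed the threshold under total-count scaling (0.48, adjusted p 0.00995, edgeR) and without replicate 1 of light 100 (0.46, adjusted p 0.0229, edgeR), and over all settings its adjusted p ran from 0.00995 to 0.623. Its paralogue AT5G15200 changed by -0.83, -0.81 and -0.89 in the same comparisons.

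All 26 large subunit genes were lower at each of the 3 light levels. The change at light 700 ran from -0.37 for AT3G11250 to -1.04 ± 0.10 for RPL3B (adjusted p 1.04e-05, edgeR). RPL3B had 33.3 and 29.9 CPM at light 100 and 15.7 and 15.4 CPM at light 700, with no overlap, and the major L3 gene AT1G43170, whose protein reaches the peptidyl transferase centre, changed by -0.73 ± 0.08. The L10 genes SAC52 and RPL10B changed by -0.71 and -0.75, and the L23a genes RPL23AA (AT2G39460) and RPL23AB (AT3G55280), near the exit of the peptide tunnel, by -0.72 and -0.58.

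Other gene groups moved beside them. Of 167 other cytosolic ribosomal protein loci tested, 158 were lower at light 700, with a median of -0.70, and all 33 nuclear genes of plastid ribosomal proteins were lower, with a median of -1.05. Among 18 ribosome assembly factors 9 were lower and 1 higher, and among 18 translation factors 14 were lower and 2 higher. Of 5 genes for the TOR pathway and EBP1, S6K2 (AT3G08720), an S6 kinase, was higher by 0.61 ± 0.12 and the EBP1 homologue AT3G51800 lower by 0.47 (log2 change -0.47 ± 0.07).

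Markers of dividing cells moved in the same direction as the 46 genes with growth light. Of 7 such markers, 5 were lower at light 700, and their summed level was 68.8 and 67.6 CPM at light 100 against 37.4 and 41.3 CPM at light 700. All 3 mesophyll markers were lower at light 700 as well, summing to 39991 and 40465 CPM at light 100 and 18572 and 16563 CPM at light 700. The part of these shifts in the result was not tested.

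**Figure D3:**
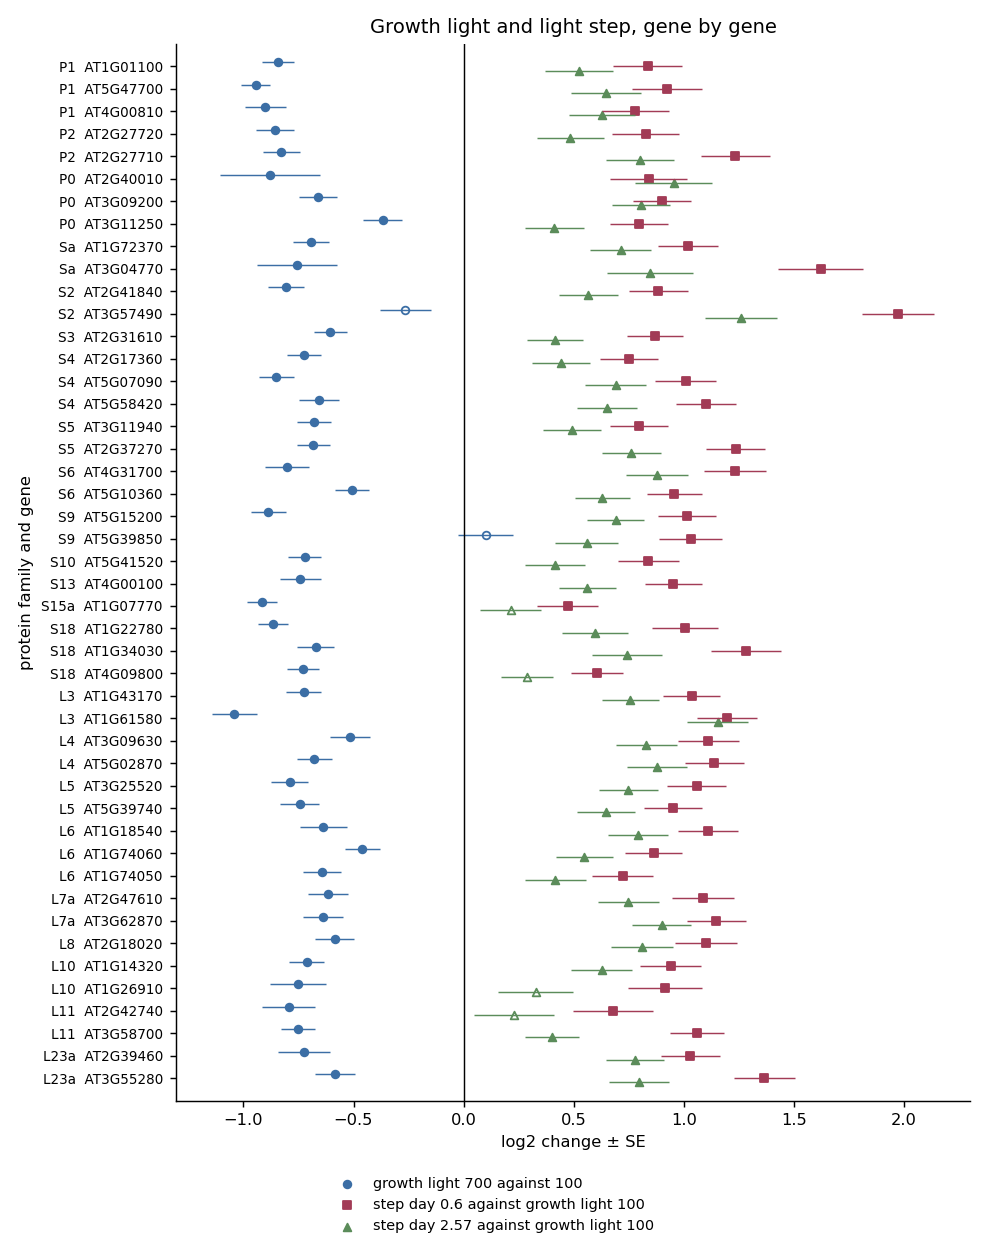
Log2 change ± SE of each of the 46 genes (rows, by family) at growth light 700 against 100 (circles), step day 0.6 against growth light 100 (squares) and step day 2.57 against growth light 100 (triangles); filled symbols passed the threshold and open ones did not. Circles lie left of 0 in all genes but AT5G39850, and all squares and triangles lie right of 0.

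The diurnal series follows plants at one light over 6 harvests. Across the 6 times, 39 of the 46 genes passed the threshold, where 60.0% of all 20958 loci tested passed (edgeR). The range between a gene's highest and lowest fitted time had a median of 0.78 (log2) over the 46 genes, beside 0.85 over all loci, and ran from 0.27 to 1.96. Group means were highest at day 0.375 for 44 of the 46 genes, with AT5G39850, highest at day 0.625, and RPSAb, highest at day 0.083, as the exceptions. Means were lowest at day 0.625 for 33 genes and at day 0.75 for 10. Among the 20 small subunit genes 19 passed and among the 26 large subunit genes 20.

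The genes that did not pass across the day were the 3 P1 genes, the P0 genes AT2G40010 and AT3G11250, RPSAb and the L11 gene RPL16A (AT2G42740). Their ranges were 0.45, 0.54, 0.49, 0.68, 0.27, 0.60 and 0.45 in that order. With day 0.916 left out of the fit, an alternative added after the data were examined, 42 genes passed across the remaining 5 times. The share of all loci in that fit is not given here.

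Among consecutive harvests, the fall from day 0.375 to day 0.625 had the largest median change. In this comparison, added after the data were examined, 41 genes were lower, where 21.6% of all loci were, and 1 was higher, where 19.9% of all loci were. The median log2 change of the 46 genes was -0.76, and the sum was 1.73 times as high at day 0.375 as at day 0.625. The median of 26 large subunit genes was -0.75 and that of 20 small subunit genes -0.81. The largest falls were in RPL3B (-1.88 ± 0.26), AT3G57490 (-1.34 ± 0.13) and RPL23AB (-1.22 ± 0.13). The gene that was higher was AT5G39850 at 0.58 ± 0.18, a call lost without replicate 2 of day 0.375 (0.40) or replicate 2 of day 0.625 (0.46).

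Between the other consecutive times, and between the last label and the first, few members passed. These were also compared after the data were examined. From day 0.083 to day 0.25 it was 0 of 46 (3 at an unadjusted p under 0.05, 0 by DESeq2, 7.62% of all loci, edgeR). From day 0.625 to day 0.75 it was 0 of 46 (0 at an unadjusted p under 0.05, 0 by DESeq2, 4.78% of all loci, edgeR). Without either replicate of day 0.916 the first of these counts was 1. From day 0.75 to day 0.916 it was 2, the S4 gene AT5G58420 higher by 0.49 and AT5G39850 lower by a log2 change of -0.64, against 19.1% of all loci. That count changed when single replicates of either day were left out, and the shares of all loci in those fits are not given here. AT5G58420 was at 0.42 without replicate 2 of day 0.75 and at 0.34 without replicate 2 of day 0.916. AT5G39850 was at -0.71 and -0.57 without replicate 1 and replicate 2 of day 0.75, and at -0.45 without replicate 2 of day 0.916. From day 0.916 to day 0.083 it was 1, AT3G57490 at 0.64, against 8.50% of all loci. That gene was at 0.55 without replicate 2 of day 0.083. This count also changed when single replicates were left out, again with shares of all loci not given here.

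From day 0.25 to day 0.375 the change was positive in every one of the 46 genes, with a median of 0.26, and 1 gene passed, AT5G39850, where 8.43% of all loci were higher. The count depended on the fit. It was 19 under total-count scaling, where 2301 of 20958 loci were higher, beside 1767 under TMM. The median of all loci moved from -0.01 to 0.07 with that scaling. With only those groups fitted the count was 15, and the count over all loci is not given here. Without replicate 1 or replicate 2 of day 0.375 the median of the 46 genes was 0.16 or 0.37. At day 0.375, 0 of the 46 genes were higher in replicate 2 than in replicate 1 (median log2 difference -0.21). Without that replicate 1, RPS6 was at -0.00093. The share of all loci with a positive change is not given here. From day 0.25 to day 0.75, 30 genes were lower against 23.9% of all loci and 1 was higher against 21.5% (edgeR), with a median of -0.45. Under total-count scaling 21 were lower, where 3293 of 20958 loci were, and 1 was higher, where 6563 were. The median of the 46 genes was then -0.25, while that of all loci moved to 0.23. With TMM and without replicate 2 of day 0.75 the median of the 46 genes was -0.36. From day 0.083 to day 0.625, 24 genes were lower against 22.0% of all loci and 1 was higher against 19.9%, with a median of -0.39. Those 25 calls fell to 13 and 9 without replicate 1 and replicate 2 of day 0.083, and to 10 and 9 without those of day 0.625.

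Among the stalk genes the main P0 gene had the widest range over the day. AT3G09200 had 359 and 350 CPM at day 0.25, 460 and 403 at day 0.375 and 240 and 242 at day 0.625, with a range of 0.84. The P2 genes AT2G27710 and AT2G27720 had ranges of 0.76 and 0.54, both past the threshold, the latter short of it in 8 of the 12 fits that left out a single replicate, with a range of 0.41 to 0.54 in those. From day 0.25 to day 0.75 the P1 genes changed by -0.14, -0.23 and -0.24, none past the threshold, and the first of them, AT1G01100, was at 0.05 under total-count scaling. From day 0.083 to day 0.625 they changed by -0.22, -0.22 and -0.25, also short of it.

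Small subunit genes with wide ranges were in families S2, S4 and S9. AT3G57490, of S2, near the entry of the message, had 26.1 and 23.9 CPM at day 0.25, 29.0 and 24.7 at day 0.375, 10.4 and 10.8 at day 0.625 and 10.8 and 12.5 at day 0.75. The harvests up to day 0.375 lay above all later ones, with a change of -1.12 ± 0.13 from day 0.25 to day 0.75 (SE; adjusted p 5.97e-05, edgeR). AT5G58420, of S4, fell by 0.98 on the log2 scale in the same comparison and by 0.86 from day 0.083 to day 0.625. RPS6 and EMB3010 had ranges of 0.87 and 0.86, and RPS5A and RPS5B of 0.52 and 0.83. RPS5A fell short of the threshold without replicate 1 of day 0.375 (0.41) or either replicate of day 0.625 (0.49 and 0.54).

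The S9 gene AT5G39850 was lowest at day 0.25 and highest at day 0.625. It had 5.55 and 5.35 CPM at day 0.083, 3.85 and 4.47 at day 0.25, 10.3 and 8.03 at day 0.375, 12.6 and 14.7 at day 0.625, 12.3 and 13.4 at day 0.75, and 9.47 and 7.08 at day 0.916. Both replicates of days 0.625 and 0.75 lay above all others, and both of day 0.25 below all others. It rose by 1.61 ± 0.19 (SE) from day 0.25 to day 0.75 (adjusted p 5.50e-05, edgeR) and by 1.33 ± 0.18 from day 0.083 to day 0.625 (adjusted p 0.000196, edgeR). In these comparisons it was the 1 member past the threshold as higher, and over the settings tried its adjusted p stayed at or below 0.00114 and 0.00348 (edgeR and DESeq2). It has no near-identical copy and no overlapping gene in the annotation.

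Among large subunit genes RPL3B had the widest range of all 46. It had 24.2 and 31.4 CPM at day 0.083, 44.2 and 43 at day 0.25, 72.5 and 72.5 at day 0.375, 19 and 20.3 at day 0.625, 20.1 and 17.0 at day 0.75, and 12.9 and 26.9 at day 0.916. Day 0.375 stood above all other times, and the replicates of day 0.916 lay on either side of those of days 0.625 and 0.75. Its range was 1.96 (adjusted p 0.000154, edgeR), its change from day 0.25 to day 0.75 was -1.24 ± 0.26, and a gene on the opposite strand overlaps it. The major gene AT1G43170 had a range of 0.90, RPL23AB of 1.22 against 0.74 for RPL23AA, and SAC52 and RPL10B of 0.82 and 0.75. RPL10B fell short of the threshold without any single replicate of days 0.25, 0.375 and 0.625, with ranges of 0.66 to 0.84. The L4 gene AT3G09630, whose protein lines the peptide tunnel, fell by 0.64 on the log2 scale from day 0.083 to day 0.625.

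**Figure D4:**
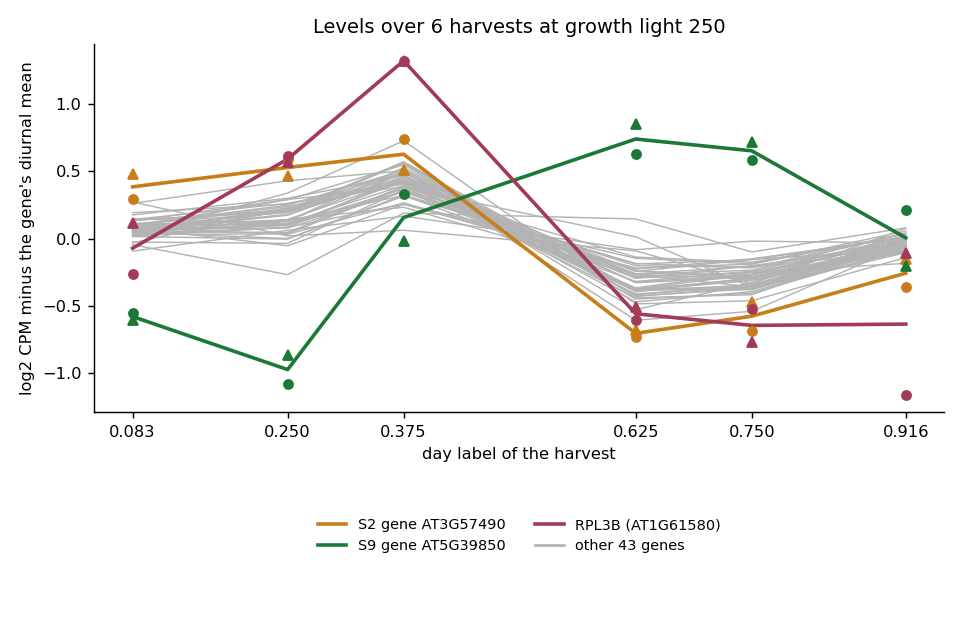
Log2 CPM of each gene minus its own mean over the diurnal series, against the day label, with lines through the group means; the S9 gene AT5G39850, RPL3B and the S2 gene AT3G57490 are coloured, with circles and triangles for replicates 1 and 2, and the other genes are grey. Most grey lines peak at day 0.375 and are low at days 0.625 and 0.75, where AT5G39850 is high; RPSAb, highest at day 0.083, RPL16A, lowest at day 0.25, and AT3G11250, lowest at day 0.083, are grey lines with another course.

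Of the other cytosolic ribosomal protein loci, 138 of 168 passed across the 6 times, with a median range of 0.75. Assembly factors had wider ranges, with 17 of 18 past the threshold and a median of 1.46, and 16 of 18 fell from day 0.25 to day 0.75, among them FIB2 (AT4G25630), a fibrillarin that methylates ribosomal RNA, by 2.02 on the log2 scale. Of the TOR and EBP1 genes 4 of 5 passed, and the S6 kinase gene AT3G08730 fell by 1.33 on the log2 scale from day 0.25 to day 0.75. Translation factors passed in 15 of 18. Plastid ribosomal proteins had ranges of 0.20 to 0.47. Markers of dividing cells summed to 34.5 to 45.8 CPM in all diurnal replicates but replicate 1 of day 0.75 (60.1 CPM) and replicate 2 of day 0.916 (75.2 CPM), each the replicate of its pair with the higher sum of the 46 genes. Mesophyll markers summed to 22916 and 15619 CPM at day 0.75 and 13112 and 26133 CPM at day 0.916, with the same replicate higher each time. Plastid ribosomal proteins summed to 5361 and 9886 CPM at day 0.916. The part of these differences between libraries in the diurnal result was not tested.

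The step comparisons ask how plants moved from light 100 to light 700 stood against plants kept at either light. The labels give no time of day, so these groups are not known to share a time of harvest. The diurnal sum was 1.73 times as high at day 0.375 as at day 0.625. An effect of the move cannot be told apart from one of harvest time here. At step day 0.6 all 46 genes were higher than at growth light 100, where 25.0% of all 20652 loci tested were higher (edgeR). At step day 2.57 it was 42 of 46, where 22.2% of all loci were higher. The median log2 changes were 1.01 and 0.65, beside -0.02 and -0.01 over all loci, and the sums were 1.99 and 1.61 times that of growth light 100. The adjusted p at day 0.6 ran from 1.08e-06 to 0.0137 (edgeR). At day 2.57 the genes short of the threshold were RPS15A (0.21 ± 0.14), RPS18C (AT4G09800, 0.29 ± 0.12), RPL10B (0.33 ± 0.17) and RPL16A (0.23 ± 0.18).

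Against growth light 700, the light the step plants were moved to, all 46 genes were higher at both step days, where 26.8% and 24.1% of all loci were. The median log2 changes were 1.71 and 1.40, and the sums 3.22 and 2.61 times those of growth light 700. Under total-count scaling the median of all loci moved to -0.25 and -0.27, and that of the 46 genes to 1.47 and 1.13. With that scaling 46 and 45 genes were higher past the threshold, where 3855 and 3015 of 20652 loci were. These comparisons share the step groups with those against light 100, so they are not independent of them.

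The stalk genes rose in the step. AT1G01100, of P1, had 172 and 173 CPM at growth light 100, 95.7 and 98.8 at growth light 700, 246 and 369 at step day 0.6 and 267 and 233 at step day 2.57. The step replicates lay above those of both growth light groups, with changes against light 100 of 0.84 ± 0.16 and 0.52 ± 0.15. The latter fell short of the threshold without either replicate of growth light 100 (0.52 and 0.53) or replicate 1 of step day 2.57 (0.42). The P2 gene AT2G27710 changed by 1.23 and AT2G27720 by 0.83 at day 0.6. AT2G40010, of P0, had 10.1 and 14.5 CPM at day 0.6 and 14.0 and 12.9 at day 2.57, against 6.76 and 7.02 at growth light 100, and was at 0.95 ± 0.17 at day 2.57 (adjusted p 0.000809, edgeR). AT3G09200 changed by 0.90 and 0.81 and AT3G11250 by 0.80 and 0.41 at days 0.6 and 2.57, the last short of the threshold without either replicate of growth light 100 (0.49 and 0.35) or replicate 1 of step day 2.57 (0.34).

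At step day 0.6 the widest changes against light 100 were in lowly expressed small subunit genes. AT3G57490 had 43.7 and 62.5 CPM at step day 0.6 and 35.6 and 29.6 at step day 2.57, against 14.2 and 12.7 at growth light 100. No replicate overlapped between the groups, and the changes were 1.97 ± 0.16 (adjusted p 1.08e-06, edgeR) and 1.26 ± 0.16 (adjusted p 5.75e-05, edgeR). RPSAb had 15 and 22.2 CPM at day 0.6 and 12 and 9.84 at day 2.57, against 6.34 and 5.68 at growth light 100 and 3.58 and 3.63 at growth light 700. Its change at day 0.6 was 1.62 ± 0.19 against light 100 and 2.39 ± 0.20 against light 700 (adjusted p 1.42e-06, edgeR), the largest of the 46 in the latter. A neighbouring gene on the same strand overlaps RPSAb, and the annotated transcripts share 132 bases, so part of its reads could be counted there.

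In the S6 pair RPS6 changed by 1.23 ± 0.14 and EMB3010 by 0.96 ± 0.13 at day 0.6 against light 100, and RPS6 by 1.69 ± 0.14 at day 2.57 against light 700. In the S5 pair RPS5B changed by 1.24 ± 0.13 and RPS5A by 0.80 ± 0.13 at day 0.6. AT5G39850, which was not lower at high growth light, also rose in the step, from 16.5 and 12.8 CPM at growth light 100 to 26.7 and 33.7 at day 0.6 and 21.8 and 22.1 at day 2.57. Its groups did not overlap, and its changes were 1.03 ± 0.14 and 0.56 ± 0.14 (adjusted p 7.35e-05 and 0.00764, edgeR).

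Large subunit genes changed by 0.68 to 1.37 at day 0.6 against light 100. RPL23AB was highest among them, with 142 and 187 CPM at day 0.6 against 68.5 and 58.9 at growth light 100, a change of 1.37 ± 0.14 (adjusted p 5.50e-06, edgeR), beside 1.03 ± 0.13 for RPL23AA. RPL3B had 61.1 and 83.7 CPM at day 0.6 and 74.5 and 67.4 CPM at day 2.57, with changes of 1.2 ± 0.14 and 1.15 ± 0.14 against light 100 and 2.25 and 2.21 against light 700. AT1G43170 changed by 1.04 and 0.76 against light 100. SAC52 changed by 0.94 and RPL10B by 0.91 at day 0.6.

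From step day 0.6 to step day 2.57 the median log2 change was -0.32, and 10 genes were lower, where 7.56% of all loci were (edgeR). The largest falls were in RPSAb (-0.78 ± 0.18), AT3G57490 (-0.71 ± 0.15) and the L11 gene AT3G58700 (-0.66 ± 0.12; adjusted p 0.0155, 0.00981 and 0.00396, edgeR). No stalk or L3 gene was among the 10, with AT3G09200 at -0.10 ± 0.13 and RPL3B at -0.04 ± 0.13. The count rested on single libraries, with 43 without replicate 1 of step day 0.6, 2 without its replicate 2, 0 without replicate 2 of step day 2.57, and 4 to 6 without any of the other replicates. By DESeq2 the count was 17, where 1733 of 20652 loci were lower, beside 1561 in the edgeR fit. With no filter beyond 1 count it was 26, and the count over all loci is not given here.

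Other groups in the step comparison with growth light 100 at day 0.6 were the other cytosolic ribosomal protein loci, 165 of 168 higher with a median of 1.07, and assembly factors, 17 of 18 higher and 1 lower with a median of 1.48. FIB2 changed by 2.57 ± 0.21 and NUC-L2 (AT3G18610), a nucleolin, by 2.48 ± 0.20. Translation factors were higher in 15 of 18 and lower in 1. The EBP1 homologue AT3G51800 changed by 1.15 ± 0.13 and TOR (AT1G50030) by -0.94 ± 0.17. Plastid ribosomal proteins were lower in 5 of 33, where 4963 of 20652 loci were lower, and higher in 1, with a median of -0.16. They were higher in all 33 against growth light 700. The difference between the plastid and the cytosolic genes was not tested.

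Markers of dividing cells stood at 64.3 and 65.7 CPM in sum at step day 0.6 and 63.3 and 53.0 CPM at day 2.57, below the 68.8 and 67.6 CPM of growth light 100, and the 7 markers changed by -0.27 to 0.18 at day 0.6. Against growth light 700, where they summed to 37.4 and 41.3 CPM, 5 of 7 were higher at step day 0.6, and 2 of 3 mesophyll markers were higher at either step day. The mesophyll sum was 30447 and 37726 CPM at step day 0.6 and 36795 and 36109 CPM at day 2.57, against 18572 and 16563 CPM at growth light 700. The phloem companion cell marker SUC2 was lower at step day 0.6, at 122 and 128 CPM against 212 and 226 CPM at growth light 700 and 180.1 and 175 CPM at growth light 100. Guard cell markers summed to 83.8 and 76.9 CPM at day 0.6 against 50.2 and 46.5 CPM at growth light 100. The part of these shifts in the step comparisons was not tested.

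Paralogues were compared within each library as the log2 ratio of their counts, which does not depend on the scaling between libraries. There are 28 pairs in families with 2 or 3 members, and the group labels were permuted over the samples, with p-values adjusted over the 28 pairs. Over growth light, 3 pairs had an unadjusted p under 0.05 and 0 passed after adjustment in the exact permutation test. The smallest possible p of that test is 0.00952, so no pair can pass alone after adjustment over 28 pairs. The 0 therefore does not show that the ratios held steady with growth light. Over the diurnal series 15 had an unadjusted p under 0.05 and 14 passed after adjustment in a test with 100000 permutations. Over the 4 groups of the step comparison it was 18 and 17 in the exact permutation test.

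The S9 ratio of AT5G15200 over AT5G39850 had the widest range of group means over growth light, over the day and in the step. It was 6.34 and 6.04 (log2) at diurnal day 0.25 and 4.28 and 4.09 at day 0.625, a range of group means of 2.00 (permutation p 0.00201, adjusted 0.0194). At growth light 100 it was 4.59 and 4.83, and at light 450 it was 3.78 and 3.51, a range of 1.07 (exact permutation p 0.0476, adjusted 0.267). In the step groups it was 4.64 and 4.71 at day 0.6 and 4.92 and 4.73 at day 2.57, against 3.69 and 3.73 at growth light 700. The step range was 1.12 (exact permutation p 0.0667, adjusted 0.0982).

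The L3 ratio of AT1G43170 over RPL3B was 3.13 and 2.96 at diurnal day 0.375 and 4.77 and 4.04 at day 0.916, a range of 1.36 (permutation p 0.00599, adjusted 0.0204). It was 4.2 and 4.21 at growth light 700 and 3.5 and 3.48 at step day 2.57, a range of 0.71 (exact permutation p 0.00952, adjusted 0.0333). The S2 ratio of AT2G41840 over AT3G57490 was 4.25 and 4.26 at growth light 100, 3.72 and 3.70 at growth light 700, 3.22 and 3.12 at step day 0.6 and 3.52 and 3.61 at step day 2.57. No replicates overlapped among these 4 groups, and the range was 1.09 (exact permutation p 0.00952, adjusted 0.0333). Over growth light its range was 0.55 (exact permutation p 0.0286, adjusted 0.267), and over the day it was 0.60 (permutation p 0.0200, adjusted 0.0468).

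Other wide ratios involved copies of low level or close sequence. AT2G40010 over AT3G11250, both P0, had a range of 1.06 over growth light and 1.05 in the step (exact permutation p 0.0571 and 0.0286, adjusted 0.267 and 0.0471), and AT2G40010 over AT3G09200 had 0.67 over growth light (exact permutation p 0.0762, adjusted 0.267). AT3G09200 over AT3G11250 had 0.69 in the step (exact permutation p 0.00952, adjusted 0.0333), and these copies share 86.3% of their sequence. RPS6 over EMB3010 had 0.50 over growth light (exact permutation p 0.0190, adjusted 0.267), going from -0.17 and -0.16 at light 100 to -0.56 and -0.77 at light 450, and it was above 0 in all 4 step replicates. RPL16A over AT3G58700, of L11, had 0.81 over the day and P40 over RPSAb had 0.72, neither past the threshold (permutation p 0.119 and 0.108, adjusted 0.166 each).

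**Figure D5:**
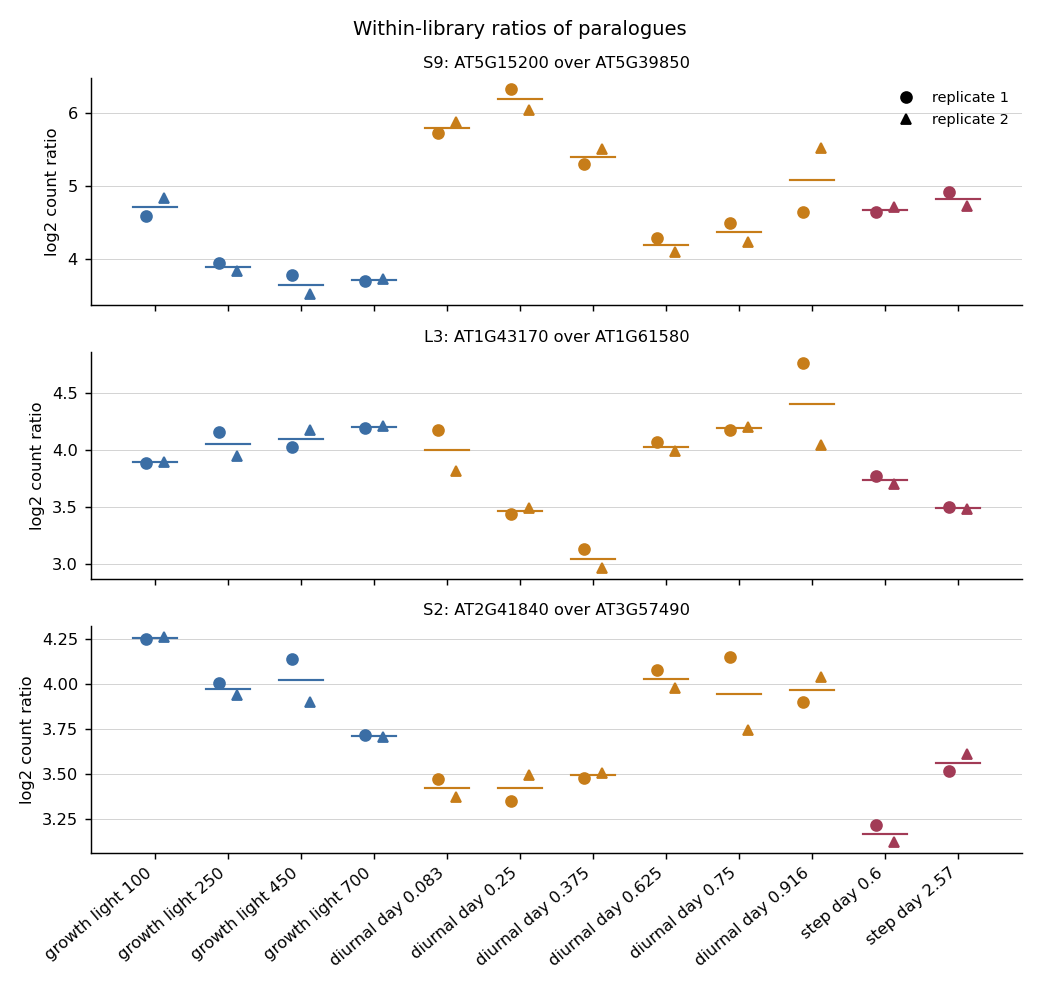
Log2 ratio of the counts of paralogues within each library (circles and triangles, replicates 1 and 2; lines, group means) for S9, L3 and S2 in all 12 groups. The S9 ratio is highest at diurnal day 0.25, at 6.34 and 6.04, the L3 ratio lowest at day 0.375, at 3.13 and 2.96, and the S2 ratio lowest at step day 0.6, at 3.22 and 3.12.

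The count of calls on paralogue ratios in the step changed when single libraries were left out. In that exact test no pair can pass alone, so calls appear or vanish together. The count therefore does not show that 1 library carried the differences. The count of 17 pairs went to 0 without replicate 1 of growth light 100, 6 without replicate 1 of growth light 700 or either replicate of step day 2.57, 8 without either replicate of step day 0.6 and 11 without replicate 2 of growth light 700. The diurnal count of 14 went to 2 or 3 without either replicate of day 0.25 or replicate 2 of day 0.625, and to 9 or 7 without replicate 1 or 2 of day 0.375. Of the 46 genes, 28 share 85% or more of a stretch of 100 bases or longer with another locus, and 10 are overlapped by another gene, 6 of them on the opposite strand, so a ratio between such copies can carry misassigned reads.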

How the data were processed

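Raw read counts per transcript and lane were deposited by the authors in 3 tables, per the file headers. Per the submitters' processing notes Bowtie2 and the build TAIR10 were used; the counting tool, the use of strand and any filters are not given in the sources used here. RNA was extracted from separate plants and pooled into 2 replicates per group, per the labels' protocols, so p-values measure the spread between such pools.

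The tables hold 41671 transcripts of 33602 loci, and no column was left out. The file for growth light repeats all its rows, and 1 of the 2 copies was read. The first-lane columns of step day 2.57 have names that differ only in letter case, so each was joined to the second-lane column with the smaller variance ratio, 1.91 against 7.14 to 7.16. Of the counts from 1 to 10, 70.4% are even, so halved counts were tried. Lanes and transcripts were summed, and coordinates, lengths and upstream windows came from RefSeq TAIR10.1, in which 46 of 46 genes matched. Copies were found with BLAST 2.17.0.

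The test on counts was that of edgeR 4.0.16 under R 4.3.3 (TMM scaling, filterByExpr, quasi-likelihood F test, Benjamini-Hochberg adjustment over all loci, threshold 0.05). All groups of a set shared 1 spread: 4 growth light groups, 6 diurnal groups, and the 2 step groups with growth light 100 and 700. SE was taken as the size of the log2 change over the root of F. Paralogue ratios used counts plus 0.5. The procedures were checked on simulated data.

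The genes named are, per comparison, the 3 largest rises and 3 largest falls past the threshold whose replicates did not overlap, the S6, S5, P0, P1, P2, L10, L3 and L23a genes throughout, and the 5 widest pairs per ratio test. Others were named where a count of 5 or fewer fell on them, or, for shares within families, after their values were seen. The members, lists and tests were chosen with earlier results of these data known. Alternatives were RLE and total-count scaling, DESeq2 1.42.0, 2 other filters, a replicate block, only the compared groups, halved counts, each lane alone, a pseudocount of 5 and leaving out each replicate.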

Additional observations from a re-analysis of the deposited data

How the results depend on the processing

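The counts of genes past the threshold for growth light 250, 450 and 700 against 100 and for all 4 comparisons of a step group with a growth light group stayed within 1.5 times under every setting, at 43 to 45, 44 to 45, 42 to 44, 44 to 46 (step day 0.6, light 100), 29 to 44 (step day 2.57, light 100), 46 to 46 (step day 0.6, light 700) and 45 to 46 (step day 2.57, light 700) when single replicates were left out. Median log2 changes then ran from -0.76 to -0.62, -0.80 to -0.63, -0.77 to -0.64, 0.77 to 1.21, 0.58 to 0.76, 1.49 to 1.93 and 1.29 to 1.5.

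Total-count scaling moved medians to -0.61, -0.48 and -0.53 (growth light 250, 450 and 700), -0.25 (day 0.75 against 0.25), 1.13 (step day 2.57 against light 700) and 0.095 (light 700 against 250, which was -0.0027 on lane 1 and -0.026 on lane 2). Without single replicates the last ran from -0.02 to -0.01 with 0 calls.

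Over the day the count of 39 ran from 32 to 42 and its median range from 0.70 to 0.89 without single replicates. Day 0.375 against 0.25, with 1 call, had 19 (total counts), 3 (DESeq2 and lane 2), 4 (no filter; at least 10 counts), 2 (halved counts) and 15 (only those groups), and 1 to 18 without single replicates, with medians of 0.16 to 0.37. Without single replicates, day 0.75 against 0.25 had 16 to 35 calls and medians of -0.54 to -0.36, day 0.625 against 0.083 had 9 to 35 and -0.42 to -0.36 (41 calls with only those groups), and day 0.625 against 0.375 had 36 to 42 and -0.87 to -0.65. Day 0.25 against 0.083 had 0 to 1 (2 with only those groups), day 0.75 against 0.625 had 0 to 0, day 0.916 against 0.75 had 0 to 27 (5 by DESeq2, 1 on lane 2, 0 with only those groups), and day 0.083 against 0.916 had 0 to 6 (2 by DESeq2 and without a filter, 0 on lane 2 and with only those groups).

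Step day 2.57 against 0.6, with 10 calls, had 17 (DESeq2), 26 (no filter) and 3 (only those groups), and 0 to 43 without single replicates, with medians of -0.54 to -0.10. Pairs of paralogues past the threshold were 0 to 0 (growth light), 2 to 14 (diurnal; 4 on lane 2) and 0 to 16 (step; 6 on lane 1, 0 on lane 2) without single replicates.

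Single genes changed sign near 0. From day 0.25 to day 0.75, total-count scaling put AT1G01100 at 0.054, AT2G27720 at 0.050, AT3G11250 at 0.11 and AT3G11940 at 0.033, and without single replicates AT2G40010 ran from -0.80 to 0.0054 and AT3G11250 from -0.20 to 0.050. From day 0.083 to day 0.625 AT2G40010 was at 0.0040 (RLE), 0.0023 (DESeq2), 0.086 (lane 2), 0.0012 (only those groups) and -0.090 to 0.091 (without single replicates), and AT3G11250 at -0.040 (lane 1) and -0.067 to 0.11. AT4G31700 from day 0.25 to day 0.375 ran from -0.00093 to 0.31. From step day 0.6 to day 2.57 AT2G40010 was at -0.0037 (lane 1) and -0.13 to 0.39, and without single replicates AT1G01100 ran from -0.58 to 0.0067, AT5G47700 from -0.56 to 0.060, AT4G00810 from -0.43 to 0.17, AT3G09200 from -0.29 to 0.11 and AT1G61580 from -0.26 to 0.20. Of 4730 such single values 4471 kept direction and side of the threshold, 141 fell short of it, 93 passed it and 25 changed sign. The cause was not tested in any case. For all counts of calls without single replicates, the shares of all loci in the same fits are not given here.

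Deviations of same-numbered samples correlated above 0.1 in 2 of 6 (growth light), 4 of 15 (diurnal) and 1 of 6 (step) pairs of groups. The correlations ran from -0.03 to 0.19, from -0.60 to 0.23 and from -0.13 to 0.12 in these sets. This check does not settle whether the replicate numbers mark a structure shared by samples. With the replicate block the diurnal count across 6 times was 37 and that of step day 2.57 against 0.6 was 7. The pairs of paralogues past the threshold were then 12 over the day and 0 in the step. The blocked step test has so few rearrangements that nearly all pairs must reach its smallest p together for any to pass. The 0 was thus nearly fixed in advance, and no conclusion is drawn from it. Depth limits the lowly expressed genes most, AT2G40010 having 59 counts in its lowest replicate.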
